A study of Mus musculus with 11 samples.

Results

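Hedgehog signalling in skin was followed through 8 genes chosen by name as core parts of the pathway: Shh, Ptch1, Smo, Gli1, Gli2, Gli3, Hhip and Sufu. They are 8 of the 49315 genes in the count table, and all 8 had enough reads to be tested. Whole skin, taken as biopsies of 4 mm, was sequenced as bulk RNA from 11 mice, 1 library per mouse. The study used mice with the Foxp3-DTR allele on a C57BL/6J background, and it describes saline-treated Foxp3-DTR mice as controls of its depletion schedules. This allele places the diphtheria toxin receptor under the control of the Foxp3 locus, so that injected diphtheria toxin (DT) kills regulatory T cells. DT was given at 30 ng per g of body weight. The EarlyDT mice received it on postnatal days 6 and 8 and were harvested on day 9. The LateDT mice received it on days 10 and 12, and the FullDT mice received 4 doses between days 6 and 12. Both of these groups were harvested on day 13. The control mice received saline (PBS), and their day of harvest is not in the sample labels. There were 2 PBS mice and 3 mice in each other group, and both sexes were present in each group.

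Hedgehog ligands are secreted proteins that act on neighbouring cells. Without ligand, the receptor Ptch1 holds the membrane protein Smo inactive, and Sufu restrains the Gli transcription factors. Ligand binding relieves Ptch1's hold on Smo, and the Gli factors then switch on target genes that include Ptch1, Gli1 and Hhip themselves. In growing hair follicles the epithelial cells of the hair matrix make Shh, and both the epithelium and the dermal papilla beneath it respond. The pathway is known in skin for its part in follicle formation and hair growth.

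The libraries are whole skin, in which follicles were not separated from other tissue, so every value below is a level in skin as a whole. Fewer cells of a type and less RNA per cell cannot be told apart in such libraries. Genes of the hair follicle were abundant in every library. Krt71, a keratin of the inner root sheath, was the most abundant of the 13 hair matrix and shaft markers measured. The summed level of those markers lay between 17100 and 25163 CPM, the unit used below, which is counts scaled for library size and composition. Krt85, another hair keratin, was not analysed here. Foxp3, the gene that marks the depleted cells, had between 9 and 23 reads in each library. Its level was 0.629 ± 0.101 CPM in PBS skin and 0.448 ± 0.0910 CPM in EarlyDT skin (SD, n = 2 and 3). It was 0.534 ± 0.141 CPM in LateDT skin and 0.502 ± 0.101 CPM in FullDT skin (SD, n = 3 each). At this depth a loss of Foxp3 reads was not detectable in any depleted group by edgeR's quasi-likelihood test, in which its adjusted p was between 0.546 and 1.00 against PBS. The libraries held between 23377571 and 34159435 counted reads. The lowest count of any of the 8 hedgehog genes in any library was 183, for Hhip.

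The test was edgeR's quasi-likelihood test, run over 18375 genes, and a gene is called here when its adjusted p is under 0.05. All the comparisons with PBS use the same 2 control libraries, so they are not independent of each other. The study describes its comparisons as made at the same age, on day 9 for early and day 13 for late depletion, but the labels do not tell on which day either of the 2 PBS mice was harvested. Depletion and age therefore cannot be told apart in the comparisons of EarlyDT, LateDT or FullDT with PBS. EarlyDT and LateDT differ in harvest day as well as in treatment. FullDT and LateDT mice were the pair of groups known to share a harvest day.

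After early depletion, edgeR called 0 of the 8 genes against PBS and DESeq2 also called 0. At an unadjusted p under 0.05 there was 1 gene, Gli1, where 872 of all 18375 genes passed the same mark. Of all genes tested, 0.00544% were called in this comparison. In LateDT skin, Ptch1, Gli3 and Hhip fell against PBS, which is 3 of the 8 genes. Of all genes tested, 4.55% were called, 1.86% higher and 2.69% lower. In FullDT skin, Shh joined them, so that 4 of the 8 genes fell against PBS. The background there was much larger, with 21.5% of all genes called, 12.1% higher and 9.39% lower. Between FullDT and LateDT skin, edgeR called 0 of the 8 genes, DESeq2 called 0, and 1 gene, Shh, had an unadjusted p under 0.05, as had 5610 of all 18375 genes. In that comparison 16.8% of all genes were called, 10.7% higher and 6.11% lower in FullDT skin. Between EarlyDT and LateDT skin, 4 of the 8 genes were higher in EarlyDT skin, namely Shh, Ptch1, Gli3 and Hhip. Of all genes tested, 6.38% were called there, 3.27% higher and 3.12% lower in EarlyDT skin. The median log2 fold change of the 8 genes was -0.24 for LateDT against PBS, where that of all genes was 0.00. It was -0.27 for FullDT against PBS, where that of all genes was -0.01.

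**Figure D1:**
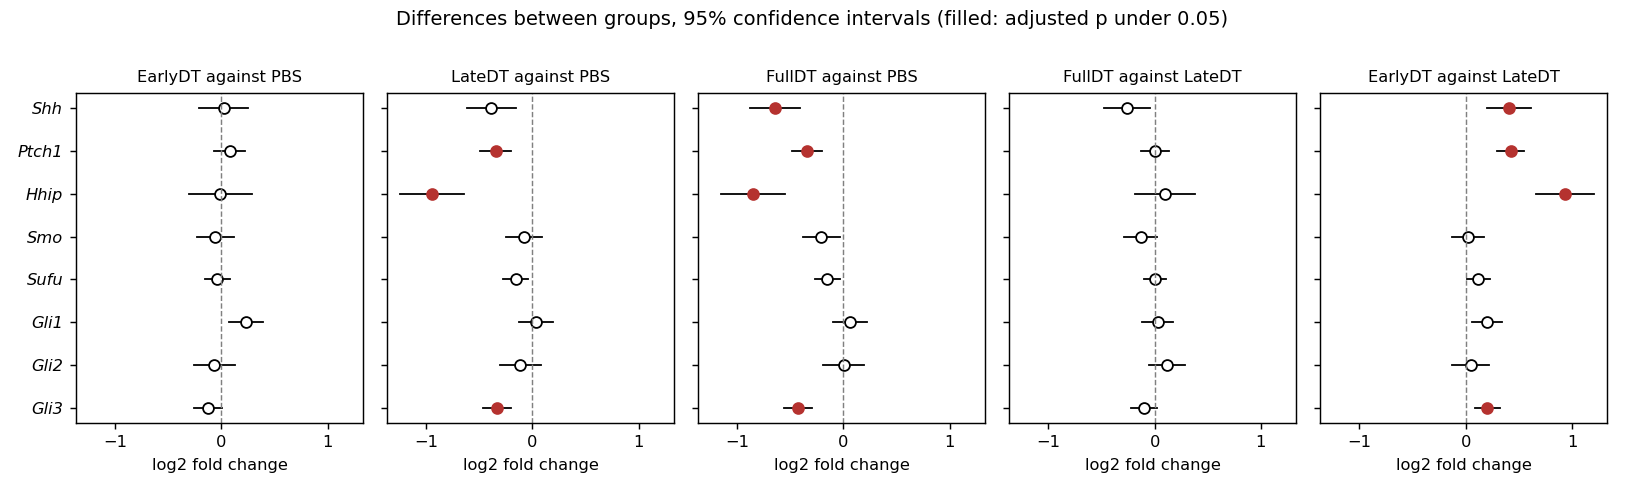
Log2 fold change of each of the 8 hedgehog genes in 5 comparisons (x axis, log2 scale), with 95% confidence intervals as lines and filled points where the adjusted p is under 0.05. Hhip lies farthest from 0 among the 8 genes when LateDT skin is set against PBS or EarlyDT skin.

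Shh (ENSMUSG00000002633, chr5:28456815-28467256 in GRCm38) encodes the ligand that hair matrix cells secrete. Its level was 35.9 and 30.0 CPM in the PBS mice and 36.9, 29.3 and 34.4 CPM in the EarlyDT mice. It was 26.4, 25.9 and 23.5 CPM in the LateDT mice and 21.0, 20.2 and 22.1 CPM in the FullDT mice. PBS and EarlyDT mice overlapped, every LateDT mouse lay below all of them, and every FullDT mouse lay below every LateDT mouse. Against PBS, Shh fell in FullDT skin, with a log2 fold change of -0.65 ± 0.11 (SE) and an adjusted p of 0.00145. This was 0.639 of the PBS level. The difference between LateDT and PBS skin was -0.39 (95% interval -0.62 to -0.15, adjusted p 0.0656) and did not pass. With 1 library left out it ran from -0.51 to -0.25. It passed with sex as a covariate (adjusted p 0.0419) and with no filter on low counts (0.00565), within a range of 0.00565 to 0.337 over its alternatives.

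The comparison of the groups of equal age gave Shh a log2 fold change of -0.26 in FullDT against LateDT skin (95% interval -0.47 to -0.05, adjusted p 0.0931). It passed when those groups alone were fitted (adjusted p 0.0465) and with no filter on low counts (0.0495), within a range of 0.0465 to 0.236. EarlyDT skin had more Shh than LateDT skin by 0.41 ± 0.10 (SE) on the log2 scale (adjusted p 0.0310). With 1 library left out the fold change stayed between 0.34 and 0.50, but the call was not always made. It was lost without EarlyDT replicate 1 (adjusted p 0.0975), without EarlyDT replicate 3 (0.0898), without LateDT replicate 2 (0.0589) and without LateDT replicate 3 (0.0663). It was also lost when those groups alone were fitted (0.0644), and the adjusted p ranged from 0.000395 to 0.0975 over the alternatives. Exons of Shh overlap those of the antisense gene 9530036O11Rik over 446 bases and those of Gm26894 over 361 bases. The sources used here do not say whether reads were counted by strand, so reads of Shh and of these genes cannot be told apart there.

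**Figure D2:**
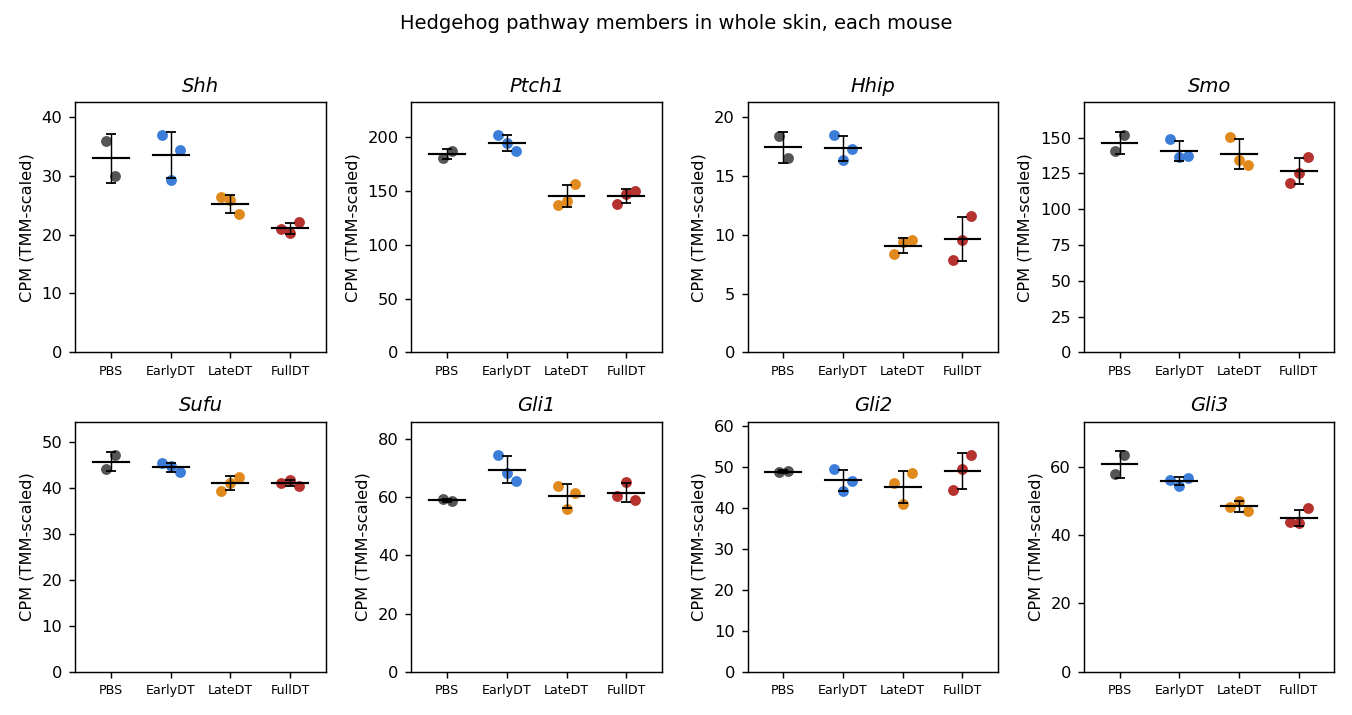
Level of each hedgehog gene in each mouse (y axis, CPM from 0) by group, with the mean as a bar and the SD as whiskers (2 PBS mice, 3 mice in each other group). For Ptch1 and Hhip the LateDT and FullDT mice lie below all PBS and EarlyDT mice.

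Ptch1 (ENSMUSG00000021466, chr13:63508328-63573598) encodes the receptor for Shh and is itself a target of the pathway. It stood at 181 and 187 CPM in the PBS mice and at 202, 194 and 187 CPM in the EarlyDT mice. The LateDT mice had 137, 141 and 157 CPM and the FullDT mice 138, 147 and 150.0 CPM. The LateDT and FullDT mice overlapped each other, and all of them lay below every PBS and EarlyDT mouse. Ptch1 fell against PBS in FullDT skin by 0.34 on the log2 scale, with an SE of 0.07 and an adjusted p of 0.00371. In LateDT skin it fell against PBS by 0.34 as well (SE 0.07, adjusted p 0.0167). The LateDT call was lost without PBS replicate 1 (adjusted p 0.0660), without PBS replicate 2 (0.0975) and when those groups alone were fitted (0.160), within a range of 0.00118 to 0.160. Between FullDT and LateDT skin the log2 fold change of Ptch1 was 0.00, with a 95% interval of -0.13 to 0.13. EarlyDT skin held more Ptch1 than LateDT skin by 0.42 ± 0.06 (SE) on the log2 scale, with an adjusted p of 0.00277, a call made in each of the 13 alternatives run.

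Hhip (ENSMUSG00000064325, chr8:79965851-80058006) encodes a membrane protein that binds hedgehog ligands and limits their action, and it too is a target of the pathway. Its level was 18.4 and 16.5 CPM in the PBS mice and 18.5, 16.4 and 17.3 CPM in the EarlyDT mice. In the LateDT mice it was 8.34, 9.37 and 9.55 CPM, and in the FullDT mice 7.85, 9.56 and 11.6 CPM. The highest mouse of the LateDT and FullDT groups was below the lowest of the other mice. Hhip had the largest log2 fold change of the 8 genes in LateDT against PBS skin, -0.94 ± 0.14 (SE, adjusted p 0.00408), at 0.520 of the PBS level. In FullDT against PBS skin it was -0.85 ± 0.14 (SE, adjusted p 0.00133). Both calls were made in each of the 12 alternatives run for them. The difference between FullDT and LateDT skin was 0.10, with a 95% interval of -0.18 to 0.38. Hhip was higher in EarlyDT than in LateDT skin by 0.94 ± 0.12 (SE) on the log2 scale, with an adjusted p of 0.00235, a call made in each of the 13 alternatives. An RNA gene on the opposite strand, Gm27820, overlaps 175 exonic bases of Hhip.

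Coreceptors tested beside these were Gas1, Cdon, Boc and Lrp2. Cdon and Boc encode surface proteins that bind Shh together with Ptch1. Cdon was at 39.7 and 31.4 CPM in the PBS mice, 28.8, 39.7 and 32.5 CPM in the EarlyDT mice, 26.7, 26.9 and 19.0 CPM in the LateDT mice and 17.2, 18.6 and 20.9 CPM in the FullDT mice. It fell in FullDT against PBS skin, by 0.91 on the log2 scale (SE 0.17, adjusted p 0.00354), in each of the 12 alternatives too. Boc differed between the groups of equal age: it was higher in FullDT than in LateDT skin by 0.26 ± 0.06 (SE, adjusted p 0.0100). The FullDT mice had between 62.2 and 65.8 CPM of Boc and the LateDT mice between 50.5 and 58.0 CPM, without overlap. With library size alone as the scaling the Boc call was lost (adjusted p 0.0600, range 0.00261 to 0.0600). Gas1, a further coreceptor, ranged from 71.0 to 119 CPM over the libraries and was not called in any of the 5 comparisons. Lrp2, a large endocytic receptor, ranged from 0.841 to 2.75 CPM and was likewise not called.

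Smo (ENSMUSG00000001761, chr6:29735503-29761365) is the membrane protein that passes the signal inward. It ranged from 118 to 152 CPM over the 11 mice and the EarlyDT and LateDT mice overlapped both other groups. Every FullDT mouse, at 118, 125 and 136 CPM, lay below both PBS mice, at 141 and 152 CPM. Its largest log2 fold change was -0.21 in FullDT against PBS skin (95% interval -0.38 to -0.04, adjusted p 0.0837). Without FullDT replicate 3 the Smo difference was -0.26 and passed (adjusted p 0.04997), within a range of 0.04997 to 0.371 over its alternatives. Sufu (ENSMUSG00000025231, chr19:46396896-46488804), which holds Gli proteins in the cytoplasm, ranged from 39.3 to 47.2 CPM. All LateDT and FullDT mice lay below all PBS and EarlyDT mice, yet the differences were small. The log2 fold change of Sufu was -0.16 in LateDT against PBS skin (95% interval -0.28 to -0.04, adjusted p 0.123). In FullDT against PBS skin it was -0.15 (95% interval -0.27 to -0.04, adjusted p 0.0622).

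Gli1 (ENSMUSG00000025407, chr10:127329882-127341974) is an activator whose transcript is often read as a gauge of hedgehog activity. Its level was 59.3 and 58.5 CPM in the PBS mice and 74.5, 68.2 and 65.3 CPM in the EarlyDT mice. It was 63.8, 55.8 and 61.3 CPM in the LateDT mice and 60.5, 65.0 and 59.0 CPM in the FullDT mice. The EarlyDT mice lay above all the others, and the remaining groups overlapped. Gli1 did not move with Ptch1 and Hhip in LateDT and FullDT skin: its log2 fold change against PBS was 0.04 in LateDT skin (95% interval -0.12 to 0.20) and 0.06 in FullDT skin (95% interval -0.10 to 0.22). In EarlyDT against PBS skin it was 0.24 ± 0.07 (SE), with an unadjusted p of 0.00776 and an adjusted p of 1.00, and so failed the adjustment. In EarlyDT against LateDT skin it was 0.20 ± 0.06 (SE, adjusted p 0.0913). The highest Gli1 level was in EarlyDT replicate 1, a library that also stood apart in myelin genes of Schwann cells, picked out after their values were seen. Mbp was at 144 CPM there and between 47.2 and 67.3 CPM in the other libraries, and Prx at 70.5 CPM there and between 23.7 and 45.1 CPM in the others. The part of Schwann cell content in the Gli1 values was not tested. Without EarlyDT replicate 1 the Gli1 log2 fold change against PBS was 0.19. Exons of Gli1 overlap those of Arhgap9 over 62 bases and those of Gm47200 over 265 bases, both on the opposite strand.

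Gli2 (ENSMUSG00000048402, chr1:118834132-119053619), the main activator downstream of Smo, ranged from 40.8 to 52.9 CPM, and its log2 fold changes in the 5 comparisons lay between -0.11 and 0.12 with no call. Gli3 (ENSMUSG00000021318, chr13:15463235-15730026) acts mainly as a repressor when no ligand is bound. It was at 58.0 and 63.5 CPM in the PBS mice, 56.1, 54.4 and 56.7 CPM in the EarlyDT mice, 48.1, 50.0 and 47.0 CPM in the LateDT mice and 43.9, 43.5 and 47.8 CPM in the FullDT mice. All LateDT and FullDT mice lay below all PBS and EarlyDT mice. Gli3 fell against PBS in FullDT skin by 0.43 on the log2 scale (SE 0.06, adjusted p 0.000512), as in each of the 12 alternatives. In LateDT skin it fell against PBS by 0.33 (SE 0.06, adjusted p 0.0130). That LateDT call was lost without PBS replicate 2 (adjusted p 0.0946) and when those groups alone were fitted (0.123), within a range of 0.00361 to 0.123. Gli3 was higher in EarlyDT than in LateDT skin by 0.20 ± 0.05 (SE, adjusted p 0.0482), a call close to the threshold. It was lost in 11 of 13 alternatives, including the removal of any 1 EarlyDT or LateDT library (adjusted p 0.0715 to 0.129), and ranged from 0.0414 to 0.129 over all of them. Gm6556, on the opposite strand, overlaps 188 exonic bases of Gli3.

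A further 47 genes of the pathway were taken from a list that leaves out the 8, and 44 of them were tested. In EarlyDT against PBS skin edgeR called 0 of the 44, DESeq2 called 0, and 2 had an unadjusted p under 0.05, beside 872 of all 18375 genes. In LateDT against PBS skin 5 of the 44 fell and none rose, where 2.69% of all genes fell. Without PBS replicate 1 the count was 2, and without PBS replicate 2 or LateDT replicate 2 it was 3. After full depletion 17 fell and 3 rose against PBS, where 9.39% of all genes fell and 12.1% rose. Leaving out single libraries, 11 to 15 of these 44 genes were called in place of 20, the fewest without PBS replicate 2 or FullDT replicate 1. Between FullDT and LateDT skin 6 were lower and 2 higher in FullDT skin, 8 of 44 where 16.8% of all genes were called. Between EarlyDT and LateDT skin 7 were higher in EarlyDT skin and none lower, where 3.27% of all genes were higher and 3.12% lower. Leaving out single libraries gave between 3, without EarlyDT replicate 1 or 3, and 9, without LateDT replicate 1. Those fits called 573, 619 and 1021 of all genes, where the main fit called 1173. The median log2 fold change of the 44 genes was -0.16 in LateDT and -0.19 in FullDT against PBS skin.

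The other hedgehog ligands were scarce. Dhh ranged from 1.99 to 3.55 CPM and was not called in any of the 5 comparisons, and Ihh, with 1 to 8 reads per library, was not tested. Of the 5 genes that process and release the ligand, Hhat, which attaches palmitate to Shh, fell in FullDT against PBS skin by 0.63 on the log2 scale (SE 0.17, adjusted p 0.0227). The Hhat call was lost without PBS replicate 2 (adjusted p 0.190), without FullDT replicate 1 (0.0709) and without FullDT replicate 2 (0.0514), within a range of 0.00969 to 0.190. Disp1, which exports the ligand, ranged from 10.5 to 14.7 CPM and was not called.

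The Scube genes encode secreted proteins that carry the lipid-bearing ligand away from the cell that makes it. Scube1 was at 24.0 and 25.2 CPM in the PBS mice, 29.1, 23.4 and 23.1 CPM in the EarlyDT mice, 13.4, 12.9 and 14.6 CPM in the LateDT mice and 10.2, 9.53 and 9.89 CPM in the FullDT mice. The LateDT mice lay below all PBS and EarlyDT mice, and the FullDT mice below all LateDT mice. Scube1 fell against PBS by 0.85 on the log2 scale in LateDT skin (SE 0.10, adjusted p 0.00153) and by 1.32 in FullDT skin (SE 0.10, adjusted p 1.24e-05). In the groups of equal age it was lower in FullDT than in LateDT skin, at -0.47 ± 0.10 (SE, adjusted p 0.00661). EarlyDT skin had more Scube1 than LateDT skin by 0.88 ± 0.09 (SE, adjusted p 0.000868). All of these Scube1 calls were made in every alternative run.

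Scube3 followed the same order, at 49.2 and 49.4 CPM in the PBS mice, 54.3, 44.3 and 52.1 CPM in the EarlyDT mice, 39.9, 38.2 and 36.1 CPM in the LateDT mice and 25.0, 29.0 and 28.3 CPM in the FullDT mice. The FullDT mice were below all LateDT mice, which were below all the rest. Scube3 fell in FullDT against PBS skin by 0.85 on the log2 scale (SE 0.09, adjusted p 8.91e-05) and was lower in FullDT than in LateDT skin at -0.47 ± 0.08 (SE, adjusted p 0.00240). In LateDT against PBS skin it fell by 0.37 (SE 0.09, adjusted p 0.0408), a call lost with the compared groups alone (adjusted p 0.0908), with library size alone (0.0986), and without PBS replicate 1 (0.153), PBS replicate 2 (0.147), LateDT replicate 2 (0.0893) or LateDT replicate 3 (0.0917), within a range of 0.00215 to 0.153. It was higher in EarlyDT than in LateDT skin by 0.40 ± 0.08 (SE, adjusted p 0.0175), a call lost with the compared groups alone (0.0517), and without EarlyDT replicate 1 (0.0621) or EarlyDT replicate 3 (0.0616), within a range of 9.02e-05 to 0.0621.

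Scube2 went the other way. It was at 7.78 and 8.80 CPM in the PBS mice, 6.06, 7.13 and 7.50 CPM in the EarlyDT mice, 9.39, 8.12 and 8.02 CPM in the LateDT mice and 19.5, 15.7 and 14.5 CPM in the FullDT mice. Every FullDT mouse lay above all the other mice. Scube2 rose in FullDT against PBS skin by 0.99 ± 0.15 (SE) on the log2 scale, with an adjusted p of 0.000745. It was higher in FullDT than in LateDT skin by 0.95 ± 0.13 (SE, adjusted p 0.000454), and both calls were made in every alternative run.

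**Figure D3:**
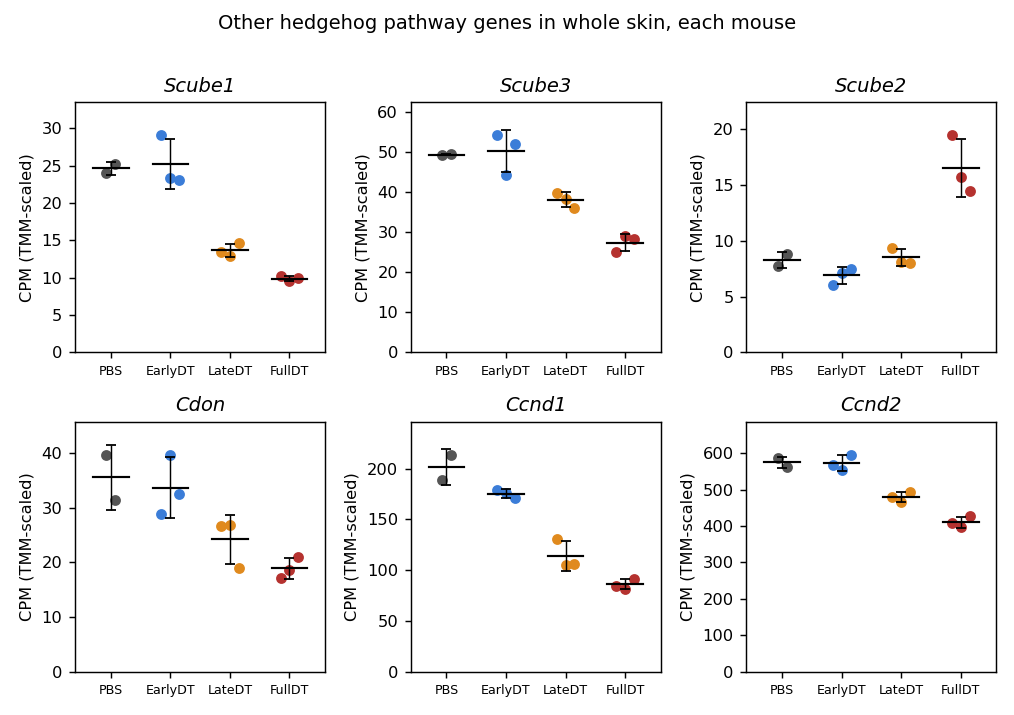
Level of 6 other hedgehog pathway genes in each mouse (y axis, CPM from 0) by group, with the mean as a bar and the SD as whiskers (2 PBS mice, 3 mice in each other group). The 3 FullDT mice are the lowest of all for Scube1, Scube3, Ccnd1 and Ccnd2 and the highest of all for Scube2.

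The relay between receptor and Gli factors, much of it in the primary cilium, was covered by 22 genes, all tested. Against PBS, 7 of them fell in FullDT skin and 2 rose, where 9.39% of all genes fell and 12.1% rose. Btrc, part of the ubiquitin ligase that marks Gli proteins for processing, fell by 0.40 on the log2 scale (SE 0.08, adjusted p 0.00391), and this call was made in each of the 12 alternatives. The other relay calls were smaller and each was lost in at least 1 alternative. Gpr161, a ciliary receptor that restrains the pathway, stood at -0.24 on the log2 scale against PBS (adjusted p 0.0154), lost under DESeq2 (adjusted p 0.0693), with no filter (0.0782) and without PBS replicate 1 (0.0699), over a range of 0.0163 to 0.0782. Prkacb, a catalytic subunit of protein kinase A, had -0.18 (adjusted p 0.0161), lost under DESeq2 (0.0794), with library size alone (0.0654), with no filter (0.161) and without PBS replicate 2 (0.0836), over a range of 0.0160 to 0.161. These 2 genes are brakes on the pathway. Kif3a, a motor that builds the cilium, had -0.29 (adjusted p 0.0247), and -0.18 without PBS replicate 1. The Kif3a call was lost in that fit, under DESeq2 (0.0924), with the compared groups alone (0.0752) and with no filter (0.0543). It was also lost without FullDT replicate 2 (0.0608) or FullDT replicate 3 (0.0810). Ift172, a ciliary transport protein, had -0.19 (adjusted p 0.0388), lost under DESeq2 (0.116), with the compared groups alone (0.0511), with no filter (0.161), with sex as a covariate (0.0537), and without PBS replicate 1 (0.169), PBS replicate 2 (0.0728), FullDT replicate 1 (0.108) or FullDT replicate 2 (0.108), over a range of 0.0400 to 0.169.

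Kif7, Ift88 and Mosmo lost their calls whichever of the 5 PBS and FullDT libraries was left out, and under DESeq2 as well (adjusted p 0.140, 0.134 and 0.242). Kif7, a ciliary kinesin that regulates Gli proteins, stood at -0.23 in FullDT against PBS skin (adjusted p 0.0389), and 0.0524 to 0.149 with 1 library left out, over a range of 0.0452 to 0.174. Ift88, a ciliary transport protein, had -0.28 (adjusted p 0.0483), and 0.0749 to 0.222 with 1 library left out, over a range of 0.0505 to 0.222. Mosmo, a regulator of Smo levels, had 0.20 (adjusted p 0.0483), and 0.0618 to 0.264 with 1 library left out, over a range of 0.0338 to 0.264. Grk2, a kinase that acts on Smo, was the other relay gene with a higher level, at 0.20 (adjusted p 0.0293). The Grk2 call was lost under DESeq2 (adjusted p 0.0679), with no filter (0.0581), and without PBS replicate 2 (0.262), FullDT replicate 1 (0.102) or FullDT replicate 3 (0.0798), over a range of 0.0193 to 0.262. Between EarlyDT and LateDT skin Gpr161 was the relay gene called, higher in EarlyDT skin by 0.24 ± 0.05 (SE, adjusted p 0.0254). That Gpr161 call was lost under DESeq2 (adjusted p 0.0537), with the compared groups alone (0.0544), and without EarlyDT replicate 1 (0.0798), EarlyDT replicate 2 (0.104), EarlyDT replicate 3 (0.0548), LateDT replicate 1 (0.0583) or LateDT replicate 2 (0.0600), over a range of 0.0197 to 0.104.

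Of 13 further genes known as targets of the pathway in various tissues, 11 were tested, and Foxf1 and Foxf2, with at most 11 and 13 reads per library, were not. Many of them also answer to other signals. Of the 11, 6 fell in FullDT against PBS skin and none rose, where 9.39% of all genes fell. Ccnd1, a cyclin that drives entry into the cell cycle, was at 189 and 214 CPM in the PBS mice, 179, 176 and 171 CPM in the EarlyDT mice, 131, 105 and 106 CPM in the LateDT mice and 84.6, 82.0 and 91.5 CPM in the FullDT mice. No group overlapped another for this gene. Ccnd1 fell against PBS by 0.82 on the log2 scale in LateDT skin (SE 0.09, adjusted p 0.00118) and by 1.23 in FullDT skin (SE 0.09, adjusted p 1.01e-05). It was lower in FullDT than in LateDT skin at -0.41 ± 0.08 (SE, adjusted p 0.00716) and higher in EarlyDT than in LateDT skin by 0.62 ± 0.08 (SE, adjusted p 0.00235). These calls were made in every alternative run.

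Ccnd2, a related cyclin, was at 585 and 563 CPM in the PBS mice, 567, 553 and 596 CPM in the EarlyDT mice, between 466 and 493 CPM in the LateDT mice and between 396 and 427 CPM in the FullDT mice. It fell in FullDT against PBS skin by 0.49 on the log2 scale (SE 0.06, adjusted p 0.000285), in every alternative too. In LateDT against PBS skin Ccnd2 fell by 0.26 (adjusted p 0.0393), a call lost with the compared groups alone (0.270), with library size alone (0.0859), and without PBS replicate 1 (0.165), PBS replicate 2 (0.0930), LateDT replicate 2 (0.113) or LateDT replicate 3 (0.0502), over a range of 0.0311 to 0.270. The same gene was lower in FullDT than in LateDT skin at -0.22 (adjusted p 0.0176), a call lost without LateDT replicate 3 (0.0538), FullDT replicate 1 (0.0642) or FullDT replicate 2 (0.0819), over a range of 0.00609 to 0.0819. In EarlyDT against LateDT skin it was higher by 0.25 (adjusted p 0.0234), a call lost with the compared groups alone (0.0725), and without EarlyDT replicate 1 (0.0591), EarlyDT replicate 2 (0.0637), EarlyDT replicate 3 (0.0862) or LateDT replicate 2 (0.0766), over a range of 0.00326 to 0.0862.

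Sox18, a transcription factor of endothelium and dermal papilla, was between 15.6 and 18.6 CPM in the PBS, EarlyDT and LateDT mice and between 11.9 and 13.3 CPM in the FullDT mice. It fell in FullDT against PBS skin by 0.50 on the log2 scale (SE 0.08, adjusted p 0.00147) and was lower than in LateDT skin at -0.39 ± 0.07 (SE, adjusted p 0.00399), in every alternative too. Mycn, a growth-promoting transcription factor, was lower in FullDT than in LateDT skin at -0.38 ± 0.07 (SE, adjusted p 0.00466), also in every alternative. Against PBS, Mycn fell in FullDT skin by 0.31 (adjusted p 0.0205), a call lost without PBS replicate 1 (0.0751), PBS replicate 2 (0.0931), FullDT replicate 1 (0.0690) or FullDT replicate 2 (0.0543), over a range of 0.00639 to 0.0931.

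Foxm1, a regulator of mitotic genes, was higher in EarlyDT than in LateDT skin by 0.38 ± 0.06 (SE, adjusted p 0.00512), in every alternative. In FullDT against PBS skin Foxm1 fell by 0.22 (adjusted p 0.0361), a call lost in 7 of 12 alternatives: under DESeq2 (0.117), with the compared groups alone (0.0702), with no filter (0.0866), and without PBS replicate 1 (0.116), PBS replicate 2 (0.122), FullDT replicate 1 (0.111) or FullDT replicate 2 (0.113), over a range of 0.00791 to 0.122. Foxe1, a transcription factor needed for hair patterning, fell there by 0.26 (adjusted p 0.0167), a call lost without PBS replicate 2 (0.112) or FullDT replicate 1 (0.0524), over a range of 0.00543 to 0.112. Bcl2, an inhibitor of cell death, differed in order from these genes. It fell in LateDT against PBS skin by 0.45 (SE 0.09, adjusted p 0.0202), and without PBS replicate 1 its log2 fold change there was -0.29. That call was lost without PBS replicate 1 and with the compared groups alone (0.149), over a range of 0.00199 to 0.149. Bcl2 was higher in EarlyDT than in LateDT skin by 0.39 (adjusted p 0.0198). This call was lost without EarlyDT replicate 1 (0.0553), EarlyDT replicate 2 (0.0789) or EarlyDT replicate 3 (0.0589), over a range of 0.00190 to 0.0789. The FullDT mice had 20.0, 17.4 and 19.2 CPM of Bcl2, all above the 15.7, 16.2 and 16.0 CPM of the LateDT mice, a difference of 0.24 that did not pass (adjusted p 0.0718).

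Levels were compared between the 8 genes per kilobase of exon, as mean CPM per kilobase over the 11 libraries. Smo stood highest at 24.4 ± 1.85 (SD, n = 11). Gli1 at 12.6 ± 1.06, Ptch1 at 11.7 ± 1.74 and Shh at 9.76 ± 2.11 came next. Their order depended on the group: PBS skin had 12.98 for Ptch1, 11.8 for Gli1 and 11.6 for Shh, and FullDT skin 12.3 for Gli1, 10.2 for Ptch1 and 7.41 for Shh. Gli2 followed at 6.87 ± 0.484. Sufu at 5.56 ± 0.310 and Gli3 at 5.39 ± 0.670 also changed places, with Gli3 above Sufu in PBS skin and below it in FullDT skin. Hhip was lowest at 1.44 ± 0.478. The SD includes differences between the groups.

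The genes whose log2 CPM followed that of Shh most closely over the 11 libraries, among 14967 genes compared, were Arhgap19 (Pearson r 0.968), Acaa2 (0.961), Gid4 (0.952), Tmod2 (0.952) and Scube3 (0.952). Their Spearman coefficients were between 0.891 and 0.973. The libraries share 4 groups, so such values describe the order of the groups as much as that of single mice. For Gli1 the closest were Drp2 (Pearson r 0.894), Dusp15 (0.888), Mal (0.869), Cldn19 (0.863) and Mks1 (0.847), with Spearman coefficients between 0.655 and 0.891. All 5 of these had their highest level in EarlyDT replicate 1, as Gli1, Mbp and Prx did.

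Promoter sequence from RefSeq (GRCm38.p6, 250 bases before to 50 after the start) was on hand for 6 of the 8 genes: Gli2, Smo, Hhip, Gli3, Ptch1 and Sufu. Shh and Gli1 were not searched. The Gli consensus GACCACCCA, or TGGGTGGTC on the other strand, was in 0 of the 6 windows and in 83 of 32851 windows of all genes, which is 0.253%. Its core, the same letters without the leading GA, was searched afterwards on both strands and was in 0 of the 6 and in 3056 windows of all genes, 9.30%. This says only that these letters are not in these windows. The promoter of Hhip is printed because Hhip had the largest fold change of the 8 genes in LateDT against PBS skin. The 250 bases upstream of its start, chr8:80058009-80058258 on the minus strand, hold 28 CG pairs, shown in capitals.
Hhip: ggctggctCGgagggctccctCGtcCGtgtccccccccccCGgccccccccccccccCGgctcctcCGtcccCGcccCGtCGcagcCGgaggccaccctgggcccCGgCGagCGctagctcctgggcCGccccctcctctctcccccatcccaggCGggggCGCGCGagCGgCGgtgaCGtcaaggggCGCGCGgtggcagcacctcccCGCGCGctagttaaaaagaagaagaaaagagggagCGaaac
Its whole window held 30.0 CG pairs, where the median of all windows was 7.

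Markers of the skin's cell types were set beside these results. Of 12 markers of dermal papilla and dermal sheath, the cells that receive the Shh signal beneath the matrix, 6 fell in LateDT and 9 in FullDT skin against PBS, where 2.69% and 9.39% of all genes fell. Of the 9, 5 were still called without PBS replicate 2, the fewest with 1 library left out. Of the 6, 2 were still called without PBS replicate 2 and 3 without PBS replicate 1, and none when those groups alone were fitted. In EarlyDT against LateDT skin, where Shh, Ptch1, Gli3 and Hhip were called, 6 of the 12 were higher in EarlyDT skin and none lower, and 2 of these calls, Acan and Trps1, stood in all 13 alternatives. Their summed level was 159 and 180 CPM in the PBS mice, between 149 and 174 CPM in the EarlyDT mice, between 111 and 117 CPM in the LateDT mice and between 99.5 and 111 CPM in the FullDT mice. Wif1 was the most abundant of them averaged over the 11 libraries, though in PBS skin Trps1 had 44.5 CPM and Wif1 43.4 CPM. Corin had a log2 fold change of -1.22 in FullDT against PBS skin (adjusted p 0.00108), Fgf10 -1.10 (0.000492), Hey1 -0.89 (0.00176) and Acan -2.40 (0.00105), and these calls were made in each of the 12 alternatives. The size of the Acan fall was less certain, since the PBS mice had 3.22 and 7.89 CPM and its fold change ran from -2.91 to -1.63 over the alternatives. In the same libraries Ptch1, Hhip, Gli3 and Scube1 were lower too. At equal age, 2 of the 12 markers were called, where 6.11% of all genes were lower in FullDT skin. The log2 fold changes of the 12 ran from -0.97 to 0.24, with a median of -0.09. The 2 called, Corin and Hey1, were lower in FullDT than in LateDT skin, at -0.82 ± 0.18 and -0.97 ± 0.14 (SE, adjusted p 0.00850 and 0.000637). Scube1, Scube3 and Sox18 were lower too, and the calls of Corin and Hey1 stood in all 13 alternatives. The part of dermal papilla content in those results was not tested.

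Of 13 hair matrix and shaft markers, 1 rose and 2 fell in FullDT against PBS skin, where 21.5% of all genes were called, and their median log2 fold change was -0.02. None of these 3 calls stood without PBS replicate 2 or without FullDT replicate 2. In EarlyDT against LateDT skin, where Shh was called, 2 of the 13 were called, both higher in EarlyDT skin, where 3.27% of all genes were higher. The log2 fold changes of the 13 began at -0.29, with a median of 0.07. Of the 2, Msx1 was higher by 0.45 ± 0.09 and Wnt10b by 0.47 ± 0.10 (SE, adjusted p 0.0176 and 0.0198). Each of these calls was lost in 4 of 13 alternatives, among them the fits without EarlyDT replicate 1, EarlyDT replicate 3 or LateDT replicate 2, and for Wnt10b without EarlyDT replicate 2 (adjusted p up to 0.0648 for Msx1 and 0.0707 for Wnt10b). Msx1 also fell in LateDT against PBS skin by 0.42 on the log2 scale (SE 0.10, adjusted p 0.0416), a call lost in 8 of 12 alternatives, the fits without PBS replicate 1, PBS replicate 2, LateDT replicate 1 or LateDT replicate 2 among them (range 0.000300 to 0.220). Between FullDT and LateDT skin 1 of the 13, Wnt10a, was called, higher in FullDT skin (0.25 to 0.44 over the alternatives, lost in 2 of 13). The part of hair matrix content in the Shh values was not tested. Of 11 markers of stem cells and outer root sheath, 2 fell in FullDT against PBS skin, where 9.39% of all genes fell, and neither call stood without PBS replicate 2, FullDT replicate 1 or FullDT replicate 2. Krt17 was the most abundant. Krt15 was the 1 of these 11 called between FullDT and LateDT skin, lower in FullDT skin at -0.66 ± 0.11 (SE, adjusted p 0.00136), in all 13 alternatives. The median of the list there was -0.04 and its highest log2 fold change 0.16. Of 10 markers of cycling cells, 9 fell in FullDT against PBS skin, where 9.39% of all genes fell, with a median log2 fold change of -0.28. Without PBS replicate 2 only 2 of the 9 calls stood, without FullDT replicate 1 only 4, and without PBS replicate 1, FullDT replicate 2 or FullDT replicate 3 only 6. Mki67 was the most abundant of them, and the summed level was 1151 and 1145 CPM in the PBS mice and between 912 and 991 CPM in the FullDT mice. Ccna2 had -0.36 (adjusted p 0.00179) and Bub1 -0.40 (0.00335), in each of the 12 alternatives too. In EarlyDT against LateDT skin Top2a and Aurkb were called higher in EarlyDT skin and the median of the list was 0.21. The summed level there was between 1153 and 1161 CPM in the EarlyDT mice and between 936 and 1046 CPM in the LateDT mice, without overlap. Both calls were lost with the compared groups alone. The Top2a call was also lost without EarlyDT replicate 1, 2 or 3 (range 0.00805 to 0.0911). The Aurkb call was also lost under DESeq2 and without EarlyDT replicate 2 or 3 (range 0.0143 to 0.0749). In FullDT against PBS skin, then, 9 of these 10 markers were called lower, as Ccnd1 and Ccnd2 were. Between EarlyDT and LateDT skin, where Ccnd1, Ccnd2 and Foxm1 were called, 2 of the 10 were, and neither call stood in all alternatives. The part of cycling cells in those results was not tested.

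Other tissues also differed between the groups in which hedgehog genes differed. The counts below stand beside these shares of all genes tested. In FullDT against PBS skin 12.1% rose and 9.39% fell, and in LateDT against PBS skin 1.86% rose and 2.69% fell. In FullDT against LateDT skin 10.7% were higher and 6.11% lower. In EarlyDT against LateDT skin 3.27% were higher and 3.12% lower. Of 7 fibroblast markers 3 fell in FullDT against PBS skin, where the summed level was between 9903 and 11229 CPM, with Col1a1 the most abundant. None of the 3 calls stood without PBS replicate 1, PBS replicate 2, FullDT replicate 1 or FullDT replicate 2, and 1 stood without FullDT replicate 3. The fold changes stayed close, between -1.10 and -0.96 for Col1a1, -1.21 and -0.93 for Col1a2, and -1.02 and -0.85 for Lum over all alternatives. Another of the 7, Pdgfra, fell in LateDT against PBS skin (-1.41 to -0.97 over the alternatives, lost in 4 of 12). Pdgfra was higher in EarlyDT than in LateDT skin (0.96 to 1.39, lost in 2 of 13). It was also higher in FullDT than in LateDT skin (0.75 to 1.18), in all 13 alternatives. The sum was between 13663 and 24277 CPM in the PBS and EarlyDT mice and 16202, 18365 and 8396 CPM in the LateDT mice. All 5 melanocyte markers fell in FullDT against PBS skin, Dct being the most abundant, and 4 of these calls stood in every alternative. All 5 were lower in FullDT than in LateDT skin too, in every alternative. Of 8 interferon response genes, 8 rose in FullDT against PBS skin and 8 were higher than in LateDT skin, Gbp2 being the most abundant, and 7 of the calls in each comparison stood in every alternative. Of 7 markers of T cells and other leukocytes 6 rose in FullDT against PBS skin, led in level by Ptprc, as did 3 of 5 macrophage markers, Adgre1, Cd68 and Itgam. Csf1r, the most abundant macrophage marker, was higher in FullDT than in LateDT skin and not called against PBS. The leukocyte calls stood in every alternative, and 1 of the 3 macrophage calls did. Skeletal muscle markers, of which Acta1 was the most abundant, summed to 4654 CPM in LateDT replicate 1 and 7133 CPM in LateDT replicate 3, and to between 1256 and 3590 CPM elsewhere. Of these 7 markers 1, Myh4, rose in LateDT against PBS skin, by 5.03 to 5.89 on the log2 scale over all 12 alternatives. In EarlyDT against LateDT skin 4 of the 7 were lower in EarlyDT skin, of which the Myh4 call stood in all 13 alternatives. In other lists, 4 of 9 interfollicular epidermis markers, 3 of 7 sebaceous gland markers and 3 of 4 endothelial markers were called in FullDT against PBS skin, where 21.5% of all genes were called, of which 2 in each list stood in every alternative. Of the endothelial markers Pecam1 rose by 0.69 on the log2 scale, while Kdr stood at -0.67 and Cdh5 at -0.36, lower as Sox18 was. Cdh5 was lost without PBS replicate 2 (adjusted p 0.0506, range 0.000322 to 0.0506). Between FullDT and LateDT skin all 4 endothelial markers were called, 3 lower and 1 higher in FullDT skin. Kdr at -0.47 and Cdh5 at -0.37 were lower in every alternative, as Sox18 was. Tie1 was lower too, a call lost in 9 of 13 alternatives. Pecam1 was higher, by 0.46, in every alternative. Krt5, Krt79 and Pecam1 were the most abundant of those lists. Of the 9 epidermis markers 2, Krt1 and Flg, fell in LateDT against PBS skin, where 2.69% of all genes fell. The same 2 were higher in EarlyDT than in LateDT skin, where 3.27% of all genes were higher. Both Flg calls stood in every alternative, at -2.55 to -1.90 and 1.73 to 2.21 on the log2 scale. Those of Krt1 were lost in 2 of 12 and 3 of 13 alternatives. Pecam1 was lower in EarlyDT than in LateDT skin, at -0.27 to -0.23 over all 13. Of 6 adipocyte markers, led by Fabp4, 1, Adipoq, was lower in FullDT than in LateDT skin, at -2.19 ± 0.66 (SE, adjusted p 0.0432). With 1 library left out that call stood only without LateDT replicate 3, though the log2 fold change stayed between -2.51 and -1.69 over all alternatives (adjusted p 9.34e-11 to 0.144). The median of the adipocyte list was -1.67 in that comparison and 0.99 in LateDT against PBS skin. Fabp4 was lower in EarlyDT than in LateDT skin at -0.41 ± 0.11 (SE, adjusted p 0.0436), a call lost in 8 of 13 alternatives with the fold change between -0.46 and -0.33. Sox10, of Schwann cells and melanocytes, fell in FullDT against PBS skin by 0.48 on the log2 scale (SE 0.11, adjusted p 0.00922), lost without PBS replicate 2 (0.0611, range 2.09e-05 to 0.0611). None of the markers of these lists was at 0 in all libraries. The part of these tissues in the hedgehog results was not tested.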

How the data were processed

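The authors trimmed the reads with Trimmomatic 0.36, aligned them to GRCm38 with STAR 2.5.2b and counted those in exons with featureCounts of Subread 1.5.2. They deposited whole-number counts per gene for 11 libraries, without normalization. The annotation release and the strand setting of that step are not in the sources used here. Gene positions and exon lengths come from GENCODE M21.

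Counts were analysed in R 4.3.3. Genes were filtered with edgeR 4.0.16 (filterByExpr by group), which left 18375, and libraries were scaled by TMM. All 11 libraries went into 1 fit with 4 group means (common dispersion 0.0120). Groups were compared in 5 pairs by edgeR's quasi-likelihood test, and p values were adjusted by Benjamini and Hochberg over the 18375 genes. A gene is called at an adjusted p under 0.05. CPM uses the scaled library sizes, and log2 CPM adds a prior count of 2. The adjusted p of many EarlyDT against PBS genes prints as 1.00. Tests were run on simulated counts for LateDT against PBS and FullDT against LateDT, with the same dispersion for every gene. Such a run cannot show how the tests behave where dispersion differs between genes. Alternatives were DESeq2 1.42.0 with the Wald test that the study used, a fit of the compared groups alone, other scalings and filters, sex as a covariate and leaving out each library. Sex was read from Xist and Ddx3y. The members and lists were chosen with earlier results of these data known. The genes named are the 8, other ligands and coreceptors, each called release, relay or target gene, the 5 most alike in pattern, and markers by abundance or call. No duplicate libraries were found: the median chi-square between replicates was 1.02 to 3.52, against 0.455 from counting error alone. Sorted Treg, single-cell and imaging data were not used here.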

Additional observations from a re-analysis of the deposited data

Results flagged for a closer look

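The results below were picked out because a direct test between groups given different schedules of depletion found a difference. In FullDT against LateDT skin, harvested on the same day, the log2 fold change was -0.47 for Scube1, 0.95 for Scube2 and -0.47 for Scube3. It was 0.26 for Boc, -0.38 for Mycn, -0.41 for Ccnd1, -0.22 for Ccnd2 and -0.39 for Sox18. FullDT mice had 4 doses from day 6 and LateDT mice 2 doses from day 10, so start day and number of doses cannot be told apart. The 8 genes just named were higher or lower in FullDT than in LateDT skin, and none of the 8 core hedgehog genes was among them. They are 8 of 44, in a comparison where 16.8% of all genes were called, so their number is near that share. The call of Boc was lost with library size alone and that of Ccnd2 in 3 of 6 fits with 1 library left out. In the same comparison 2 of 12 dermal papilla markers (Corin and Hey1) and 1 of 11 stem cell and outer root sheath markers (Krt15) were lower in FullDT skin. So were all 5 melanocyte markers and 3 of 4 endothelial markers, Kdr and Cdh5 among them, while Pecam1 was higher. Of 7 leukocyte markers 6 were higher, and the part of those cells was not tested. In EarlyDT against LateDT skin the groups differed in harvest day too, so schedule and age cannot be told apart. The log2 fold change there was 0.41 for Shh, 0.42 for Ptch1, 0.20 for Gli3 and 0.94 for Hhip. For the other pathway genes it was 0.88 for Scube1, 0.40 for Scube3, 0.24 for Gpr161, 0.62 for Ccnd1, 0.25 for Ccnd2, 0.39 for Bcl2 and 0.38 for Foxm1. All 11, which are 4 of the 8 and 7 of the 44, were higher in EarlyDT skin, where 3.27% of all genes were higher and 3.12% lower. In the same comparison 6 of 12 dermal papilla, 2 of 13 hair matrix, 2 of 10 cycling cell and 2 of 9 epidermis markers were higher in EarlyDT skin. Lower there were 4 of 7 skeletal muscle markers and 3 of 8 interferon response genes. The part of those cells was not tested. The calls of Shh, Gli3, Scube3, Gpr161, Ccnd2 and Bcl2 were lost in some fits with 1 library left out.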

How the results depend on the processing

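Over 40 fold changes of the 8 genes, 496 alternative values were computed: 441 kept direction and side of the threshold, 21 lost a call, 5 gained one and 29 changed sign. Another 495 values were computed for called genes of the wider list, an addition made after their calls were seen: 386 kept the call and 109 lost it. For FullDT against PBS, 4 of the 8 genes were called throughout, except that 5 were called without FullDT replicate 3. Fitting the compared groups alone called 1 of the 8 in LateDT against PBS, 1 in FullDT against LateDT and 2 in EarlyDT against LateDT. Of all genes, those fits called 154 of 17508, 2594 of 17688 and 540 of 17224. The main fit called 836, 3096 and 1173 of 18375 in these comparisons. With no filter on low counts 1 was called in FullDT against LateDT, beside 3705 of all 35745 genes. With 1 library left out the number called was 1 to 3 in LateDT against PBS, 0 in FullDT against LateDT and 2 to 3 in EarlyDT against LateDT.

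For the 44 other genes, fitting the compared groups alone called 2 in LateDT against PBS and 4 in EarlyDT against LateDT. Library size alone called 3 in LateDT against PBS, beside 656 of all 18375 genes. In FullDT against PBS, DESeq2 called 12 and no filter 11, beside 3526 and 4145 of all genes, where the main fit called 3946. No filter also called 11 in FullDT against LateDT, 4 of them higher. With 1 library left out the numbers were 2 to 7 in LateDT against PBS, 11 to 15 in FullDT against PBS, 7 to 12 in FullDT against LateDT (5 higher and 7 lower without LateDT replicate 3) and 3 to 9 in EarlyDT against LateDT. The number called among all genes moved as well. With 1 library left out it was 1987 to 2942 in FullDT against LateDT and 353 to 1172 in EarlyDT against LateDT. The cause of these shifts was not tested.

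The values that changed sign were all near 0 and uncalled. For Hhip in EarlyDT against PBS the log2 fold change was 0.00246 with the compared groups alone, 0.0308 with library size alone, 0.000750 with no filter and 0.00432 with at least 10 counts in every library. With library size alone it was -0.00376 for Gli2 in FullDT against PBS, and -0.0226 for Ptch1 and -0.0204 for Sufu in FullDT against LateDT. With 1 library left out, EarlyDT against PBS gave -0.10 to 0.16 for Shh, -0.0828 to 0.0707 for Hhip and -0.0869 to 0.00915 for Sufu. LateDT against PBS gave -0.00591 to 0.10 for Gli1, and FullDT against PBS gave -0.0561 to 0.0660 for Gli2. FullDT against LateDT gave -0.0418 to 0.0636 for Ptch1, -0.0289 to 0.0656 for Gli1, -0.0549 to 0.21 for Hhip and -0.0289 to 0.0316 for Sufu. EarlyDT against LateDT gave -0.0140 to 0.0855 for Smo and -0.0168 to 0.11 for Gli2. The cause was not tested.

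No paired analysis was possible because the labels give the mice no numbers shared between groups. Leaving out a PBS library leaves 1, which is then assumed to vary like the other groups. With 2 control mice, small differences from PBS can be missed.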
